A study of Mus musculus with 15 samples.

Results

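The subject here is the set of medulloblastomas labelled S-type that arose after 0.2 Gy of X-rays, set against normal cerebellum. The members were chosen by their labels alone: 3 tumour arrays (MB4, MB5 and MB6) and 3 arrays of normal cerebellum, 6 of the 15 arrays of the series. Medulloblastoma is a malignant tumour of the cerebellum. The tumour mice were Ptch1+/- on a C3B6F1 background, that is, they carried a mutant copy of the Hedgehog receptor gene in every cell, and they were irradiated at postnatal day 1 and killed when moribund. MB4, MB5 and MB6 came from mice labelled with ages of 128, 133 and 135, MB4 and MB5 from females and MB6 from a male. The normal cerebella were unirradiated, from females labelled with ages of 103, 103 and 113. The labels give ages without a unit, name no pooling and assign no genotype to the normal tissue itself. All 3 tumours thus came from irradiated animals with higher labelled ages, so that age, irradiation, genotype and tumour cannot be told apart in this comparison. For the differences among tumours, 3 S-type tumours at 0 Gy (MB1 to MB3) and 3 R-type tumours at 0.2 Gy (MB7 to MB9) served as comparison groups, from Ptch1+/- mice labelled with ages of 160 to 173 and 106 to 127. The mice of both comparison groups were all labelled female. The labels give the letters S and R with no explanation.

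Hedgehog signalling is the pathway behind this tumour model. The secreted ligand Shh, made by Purkinje cells in the developing cerebellum, binds the receptor Ptch1, which then releases its hold on the membrane protein Smo. Smo in turn lets the GLI transcription factors switch on their targets, among them Gli1 and Ptch1 themselves, Mycn and the D-type cyclins. In the newborn cerebellum this drives the division of granule neuron precursors in the outer layer, which later leave the cycle and become the most numerous neurons of the brain. Loss of Ptch1 function keeps the pathway on without ligand.

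All levels below are log2 of the array signal minus that array's 75th percentile, so that 0 is the 75th percentile itself, and a difference of 1 is a 2-fold difference in signal. A signed number in parentheses after a gene is its log2 difference. Tumour values are given in the order MB4, MB5, MB6, and normal values in the order normal cerebellum 1, 2, 3. The number of probes with a signal well above background was 24298 to 27318 on the tumour arrays, against 26107 to 26554 on the normal arrays. Over the 21661 genes tested the tumours correlated (Pearson) with each other at 0.9813 to 0.9908, the tumours with the normal cerebella at 0.7986 to 0.809, and the normal cerebella with each other at 0.9902 to 0.992. The median standard deviation (SD) of a gene over 3 arrays was 0.16 in the tumours and 0.11 in the normal cerebella. The female-specific transcript Xist stood at -0.70, -0.03 and -7.14 in the tumours, against 0.10, 0.00 and 0.11 in the normal cerebella, and the low value was that of the 1 male sample among the 6. Each group had 3 arrays of separate samples, and their number limits the precision of every value.

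Most of the transcriptome differed. Of 21661 genes tested, 8853 (40.9%) were higher in the tumours and 7151 (33%) were lower at an adjusted p below 0.05 (limma, with Benjamini-Hochberg adjustment over all genes tested). At least 2-fold changes made up 5197 of the higher genes (24% of those tested) and 4476 of the lower genes (20.7%). The tumour and normal values of a gene did not overlap for 17387 genes (80.3%). Every count of list members below is to be read against these shares, and the median log2 difference over all genes tested was 0.13. On the slides that held arrays of both groups, MB6 minus normal cerebellum 1 had the direction of the fit for 15982 of the 16004 changed genes, and MB4 minus normal cerebellum 3 for 15973. These arrays were part of the fit that called the genes. Such agreement was therefore largely set in advance, and it is no separate check of the part of slide.

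**Figure D1:**
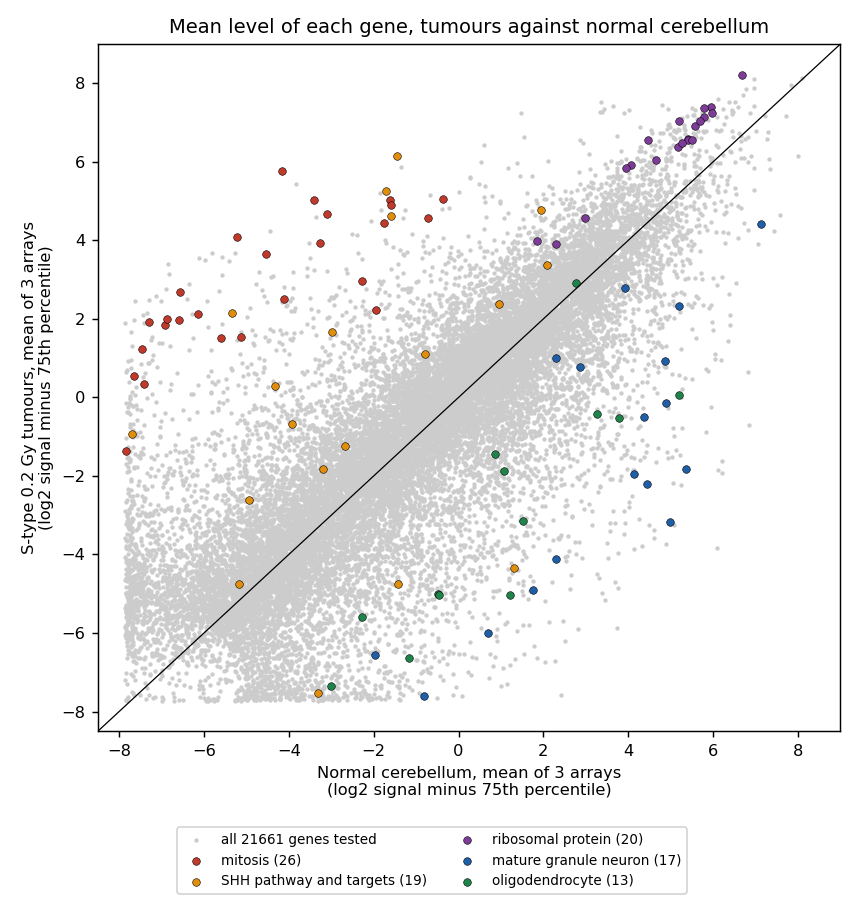
Mean level of each of the 21661 genes tested in S-type 0.2 Gy tumours (y axis) against normal cerebellum (x axis), each the mean of 3 arrays as log2 signal minus the 75th percentile; coloured points are members of 5 gene lists and the line marks equal levels. Mitosis genes lie above the line, all mature granule neuron genes below it, and ribosomal protein genes in a narrow band above it at high levels.

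Hedgehog pathway genes were mostly higher in the tumours. Of 19 pathway members and targets tested, 16 rose and 3 fell, and the median log2 difference was 2.33. Ptch1, the receptor gene mutated in these mice, stood at -1.60, -1.76 and -2.08 in the tumours, against -3.03, -3.20 and -3.33 in the normal cerebella. The groups did not overlap, and the log2 difference was 1.37 ± 0.17 (SE, adjusted p = 1.17e-05, limma). The array does not tell whether this transcript came from the intact or the mutant copy. Smo, the signal transducer held back by Ptch1, averaged 4.77 ± 0.45 in the tumours and 1.94 ± 0.18 in the normal cerebella (SD, n = 3 arrays each). Sufu, which restrains the GLI factors, was also higher, by 2.33 on the log2 scale, and so was Hhip, a ligand trap induced by the pathway, by 1.44.

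The GLI factors did not move together. Gli1, the activator that is itself a target, stood at -0.36, -0.66 and -0.99 in the tumours, against -3.73, -3.99 and -4.07 in the normal cerebella (9.58-fold). Gli2, the main activator, averaged 1.67 ± 0.13 in the tumours and -2.97 ± 0.02 in the normal cerebella. Gli3, which acts largely as a repressor, fell, with -3.27, -4.63 and -6.33 in the tumours against -1.39, -1.34 and -1.56 in the normal cerebella (log2 difference -3.32 ± 0.63 SE, adjusted p = 0.000458, limma). Its level spread widely over the tumours, with MB6 lowest and not well above background, yet even MB4 lay below every normal array. Among the co-receptors that help Shh bind, Boc (by 1.27) and Gas1 (by 1.88 on the log2 scale) rose. The third co-receptor, Cdon, stood at -3.69, -3.97 and -5.37 in the tumours against 1.36, 1.11 and 1.43 in the normal cerebella, with a log2 difference of -5.64, and was well above background in 2 of the 3 tumours. The ligand gene Shh was not well above background in any tumour and stood at -3.24, -3.29 and -3.40 in the normal cerebella, which makes it at least 4.26-fold lower in the tumours. Such a bound sets the brighter group's mean against, for each dim array, the higher of the lowest signal that counted as well above background there and the probe's own signal.

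The growth-driving targets showed the largest differences of the pathway. Mycn, a MYC-family transcription factor, stood at 4.58, 4.73 and 4.57 in the tumours, against -1.55, -1.55 and -1.67 in the normal cerebella (74.3-fold, log2 difference 6.22 ± 0.09 SE, adjusted p = 2.83e-13, limma). Ccnd2, cyclin D2, stood at 6.41, 6.26 and 5.74 in the tumours, against -1.64, -1.48 and -1.20 in the normal cerebella (191-fold). Its kinase partner Cdk6 was well above background in all 3 tumours and in no normal cerebellum, at least 24.4-fold higher. Sfrp1, a secreted WNT modulator, averaged 5.27 ± 0.21 in the tumours and -1.72 ± 0.19 in the normal cerebella (126-fold). Foxm1, a transcription factor of late cell cycle genes, averaged 2.15 ± 0.48 in the tumours and -5.35 ± 0.30 in the normal cerebella, of which 2 of 3 were above background. Kif7 and Ccnd1 were on the list but were not matched by name and are not analysed here.

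**Figure D2:**
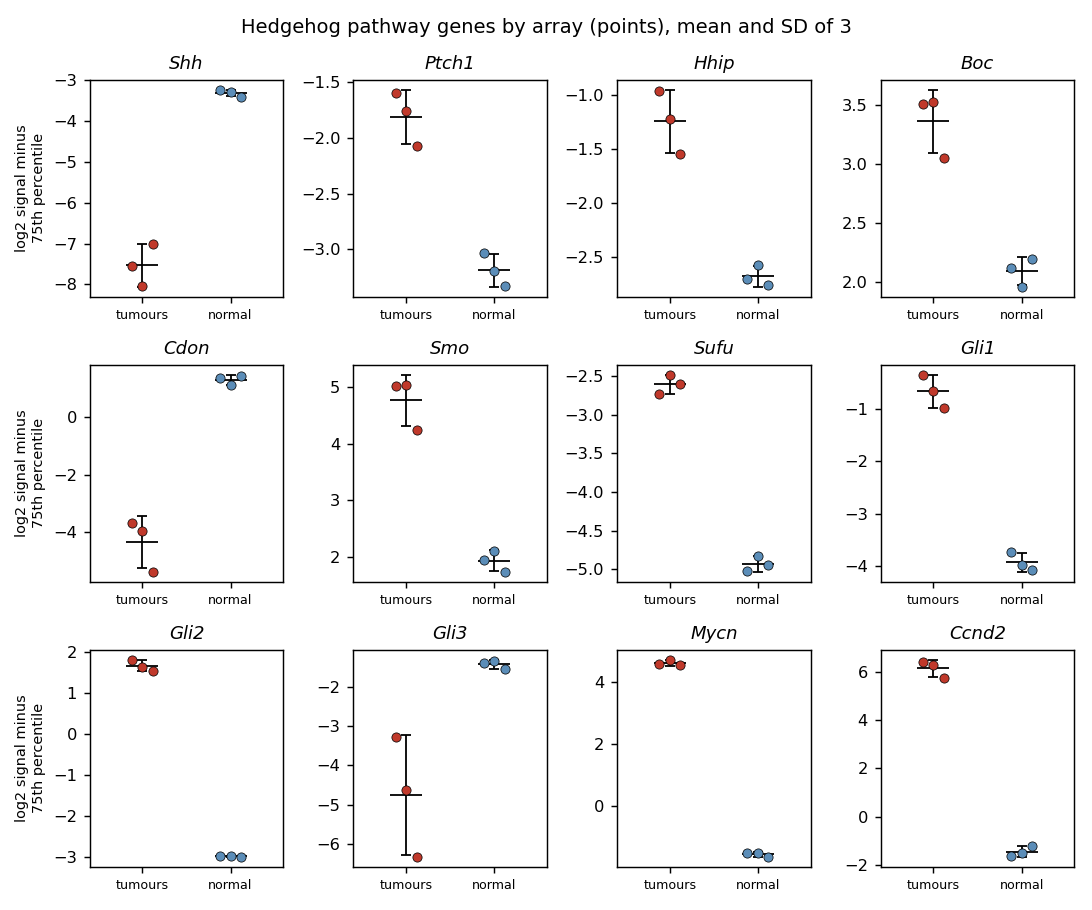
Level of 12 Hedgehog pathway genes (log2 signal minus the 75th percentile) on each array, S-type 0.2 Gy tumours at the left and normal cerebella at the right of each panel, with bars for the mean and SD of 3 arrays; the y axes differ between panels. Shh, Cdon and Gli3 are lower in the tumours and the other 9 genes are higher, and the groups overlap for none of the 12.

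Genes of dividing cells were higher in the tumours without exception among those tested. All 26 mitosis genes rose, with a median log2 difference of 7.77, or 6.93 when the 9 members that were not above background in any normal cerebellum are set at their bounds. Mki67, the proliferation marker Ki-67, stood at 5.90, 5.82 and 5.59 in the tumours, against -4.96, -4.49 and -3.02 in the normal cerebella (976-fold). Birc5 (survivin) was 346-fold higher and Ccna2 (cyclin A2) 217-fold higher. Cdk1, the kinase that starts mitosis, was well above background in all 3 tumours and in no normal cerebellum, at least 299-fold higher on the probe used. The same held for the kinase gene Aurkb, at least 109-fold higher, and for the checkpoint kinase Ttk, the kinesin Kif11 and the kinetochore gene Ndc80. The 2 probes of Cdk1 ranged between 3.33 and 9.25 on the log2 scale, and the 2 of Kif11 between 2.88 and 8.21. Tpx2, a spindle assembly factor, and Espl1, the enzyme separase that frees sister chromatids, were higher by 6.63 and 6.67 on the log2 scale, and Espl1 was above background in 1 of 3 normal cerebella.

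All 29 DNA replication genes tested rose, with a median log2 difference of 4.0 (3.94 with 2 members at their bounds). Mcm6, a subunit of the replicative helicase, stood at 6.54, 6.39 and 6.33 in the tumours, against 0.49, 0.63 and 0.71 in the normal cerebella (56.1-fold). The helicase loading partner Mcm10 rose by 7.04, the polymerase gene Pole by 5.79 and the thymidylate synthase gene Tyms by 5.73 on the log2 scale. Tk1, thymidine kinase, was at least 410-fold higher. The kinase gene Cdk2, not above background in any normal cerebellum, was at least 8.14-fold higher. Pcna, the polymerase clamp, was already well above background in the normal cerebella at 3.08, 3.07 and 3.16, and it stood at 5.98, 5.79 and 5.69 in the tumours (6.56-fold). The S-phase transcription factor E2f2 averaged 2.82 ± 0.14 in the tumours and -4.11 ± 0.21 in the normal cerebella. All 17 DNA repair and checkpoint genes tested rose as well (median 3.98, or 3.75 with 3 members at their bounds). Among them were the homologous recombination gene Brca1 (by 5.44), the exonuclease Exo1 (by 7.67) and the Fanconi genes Fanca (by 4.48) and Fancd2, the last at least 19.4-fold. Claspin (Clspn), which links stalled forks to the kinase Chek1, was at least 13.4-fold higher. Gins1, Incenp, Atr and H2ax were not matched by name.

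Because replication and mitosis genes moved together, the windows around their RefSeq gene starts (250 bases before to 50 after, GRCm38.p6) were searched for the letters of known cell cycle elements on both strands. A gene counted if any of its windows held a match. The E2F words TTTCCCGC, TTTCGCGC, TTTGCCGC and TTTGGCGC, which can overlap each other through a shared GCGC, were found for 12 of 24 replication genes with a window (50%), 4 of 12 repair genes (33.3%) and 1 of 22 mitosis genes (4.55%). Of all 27025 genes with a window, 2.6% held one. The words TTTGAA and TTTAAA, variants of the cell cycle genes homology region (CHR), were found for 19 of 22 mitosis genes (86.4%), 8 of 24 replication genes (33.3%) and none of 12 repair genes, against 30.6% of all genes. Among mature granule neuron genes, 0 of 12 had an E2F word and 3 of 12 (25%) a CHR word. The GLI word GACCACCCA was in 0.289% of all genes' windows and in none of 12 Hedgehog genes with a window. These are matches of letters and not bound sites.

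Shown first are the windows of 3 genes with E2F words, in capitals: the helicase gene Mcm6, the S-phase factor gene E2f2 and the Hedgehog target Mycn, 1 of 12 Hedgehog genes with an E2F word.
Mcm6, chr1:128359656-128359955, minus strand: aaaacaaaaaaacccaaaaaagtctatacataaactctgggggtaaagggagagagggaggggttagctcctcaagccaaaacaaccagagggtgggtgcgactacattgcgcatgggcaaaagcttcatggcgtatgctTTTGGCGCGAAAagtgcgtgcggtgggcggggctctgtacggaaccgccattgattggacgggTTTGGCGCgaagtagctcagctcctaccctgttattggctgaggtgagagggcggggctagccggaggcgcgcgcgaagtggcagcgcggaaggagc
E2f2, chr4:136172024-136172323, plus strand: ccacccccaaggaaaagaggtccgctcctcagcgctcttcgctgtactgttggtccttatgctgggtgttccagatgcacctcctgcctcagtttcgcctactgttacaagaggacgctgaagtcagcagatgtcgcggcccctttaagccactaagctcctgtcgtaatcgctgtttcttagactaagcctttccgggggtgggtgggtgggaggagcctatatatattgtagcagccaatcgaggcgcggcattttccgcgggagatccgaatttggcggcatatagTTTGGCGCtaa
Mycn, chr12:12941787-12942086, minus strand: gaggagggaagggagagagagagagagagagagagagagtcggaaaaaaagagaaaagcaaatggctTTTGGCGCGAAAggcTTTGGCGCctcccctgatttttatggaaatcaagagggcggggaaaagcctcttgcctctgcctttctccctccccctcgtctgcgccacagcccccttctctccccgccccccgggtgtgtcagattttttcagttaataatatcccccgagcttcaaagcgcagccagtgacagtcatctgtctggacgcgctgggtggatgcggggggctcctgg
Shown next, with the CHR words in capitals, are the windows of the mitotic kinase genes Cdk1 and Plk1, where Plk1 rose by 7.20 on the log2 scale.
Cdk1, chr10:69352863-69353162, minus strand: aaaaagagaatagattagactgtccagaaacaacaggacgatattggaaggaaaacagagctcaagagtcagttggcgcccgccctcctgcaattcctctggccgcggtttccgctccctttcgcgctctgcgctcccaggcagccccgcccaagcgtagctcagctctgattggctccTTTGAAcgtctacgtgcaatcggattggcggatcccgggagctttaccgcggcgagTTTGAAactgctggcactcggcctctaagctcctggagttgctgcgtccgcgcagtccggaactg
Plk1, chr7:122159185-122159484, plus strand: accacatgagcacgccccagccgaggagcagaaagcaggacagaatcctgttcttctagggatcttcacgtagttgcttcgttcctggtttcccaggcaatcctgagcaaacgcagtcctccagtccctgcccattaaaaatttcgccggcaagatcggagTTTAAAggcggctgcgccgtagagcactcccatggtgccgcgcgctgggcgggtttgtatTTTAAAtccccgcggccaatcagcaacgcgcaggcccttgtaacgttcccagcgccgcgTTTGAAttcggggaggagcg

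Brakes of the cell cycle were not lower as a group. Of 19 CDK inhibitor and p53 pathway genes tested, 13 rose and 3 fell, with a median log2 difference of 0.74. Cdkn2a, which encodes the INK4a inhibitor and the p53 activator ARF, stood at 0.66, 0.34 and -0.91 in the tumours and was not above background in any normal cerebellum, which makes it at least 47.3-fold higher. The inhibitor genes Cdkn2c (by 3.91) and Cdkn2b (by 3.12 on the log2 scale) rose too. The p53-induced cell death genes Pmaip1 (by 3.02), Bax (by 1.63) and Bbc3 (by 1.22) were higher. The p53 target Cdkn1a averaged 1.08 in the tumours and -0.97 in the normal cerebella. Other members of the list did not rise: Sesn1 and Perp fell, and Ccng1, Fas and Btg2 did not pass the test. Trp53 itself gave opposite calls on its 2 probes, -0.41 on the probe used here and 3.22 on the other. It counts among the 3 that fell by the probe used, but no direction is given for the gene. Chromatin and DNA methylation genes rose in 18 of 20 cases (median 1.72). The largest difference was that of Uhrf1, which guides DNA methylation to newly replicated DNA, with 3.79, 3.53 and 3.40 in the tumours against -6.37, -5.62 and -4.73 in the normal cerebella, of which 1 of 3 was above background. Lmnb1 (lamin B1, by 4.94), Ezh2 (the Polycomb methyltransferase, by 4.47), Hmgb2 (by 5.30), Hmgn2 (by 3.35) and the SWI/SNF subunit gene Smarcc1 (by 2.76 on the log2 scale) also rose.

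All 20 ribosomal protein genes tested rose, within a narrow range of 1.06 to 2.14 on the log2 scale (median 1.42). Rps18 was the brightest in signal, with 8.28, 8.14 and 8.18 in the tumours against 6.66, 6.70 and 6.70 in the normal cerebella. Rpl10a (by 2.14) and Rps9 (by 1.90) were near the upper end. On both slides that held arrays of the 2 groups the list stood at a like difference, with medians of 1.44 for MB6 minus normal cerebellum 1 and 1.46 for MB4 minus normal cerebellum 3.

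Genes of granule neuron precursors moved both ways. Of 24 tested 13 rose, 3 fell and 8 did not pass the test, with a median log2 difference of 1.12. Atoh1, the factor that defines this lineage, stood at 2.92, 2.65 and 1.78 in the tumours, against -7.69, -7.59 and -7.58 in the normal cerebella, where it was nowhere above background, and was at least 253-fold higher. Insm1 (at least 277-fold), Nhlh1 (at least 315-fold) and Igfbpl1 (at least 485-fold), genes of newborn neurons, were likewise above background in the tumours alone. Sox11, a factor of immature neurons, averaged 2.42 ± 0.17 in the tumours and -4.52 ± 0.27 in the normal cerebella. Dcx, the microtubule protein doublecortin, was 100-fold higher, although its 3 probes ranged between 2.26 and 6.65 on the log2 scale. Barhl1, a homeobox gene of the lineage, was 20.8-fold higher. In contrast, Zic1, which granule neurons keep expressing into adulthood, stood at 6.49, 6.49 and 6.75 in the tumours against 6.78, 6.64 and 6.80 in the normal cerebella (adjusted p = 0.184, limma). Pax6 also did not pass the test (-0.25 on the log2 scale). The related factor Zic2 fell by 2.21. Neurod1, a factor of differentiating granule neurons, stood at 0.10, 0.99 and 1.52 in the tumours against 2.43, 2.31 and 2.62 in the normal cerebella and fell by 1.59 on the log2 scale.

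**Figure D3:**
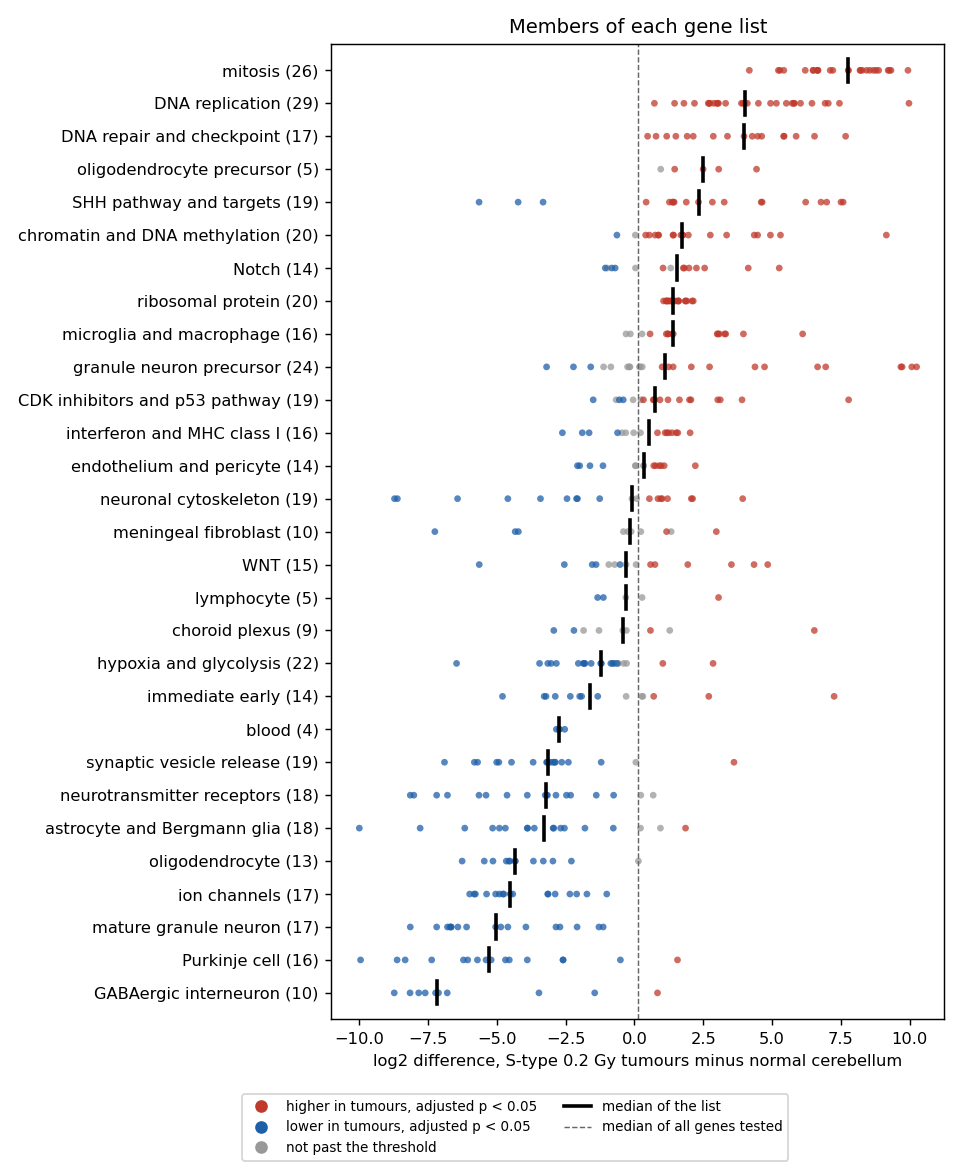
Each point is a tested member of 1 of 29 gene lists at its log2 difference, S-type 0.2 Gy tumours minus normal cerebellum (x axis); red and blue points passed an adjusted p of 0.05 in limma, grey points did not, black bars are list medians and the dashed line is the median of all genes tested (0.13). Lists are sorted by median, between 7.77 for mitosis and -7.17 for GABAergic interneuron genes.

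Markers of mature neurons were lower. All 17 mature granule neuron genes tested fell, with a median log2 difference of -5.04 (-4.85 with 2 members at their bounds). The receptor subunit gene Gabra6, found almost exclusively in granule cells, stood at -2.11, -1.61 and -5.77 in the tumours against 4.92, 4.86 and 5.15 in the normal cerebella, and was well above background in 2 of the 3 tumours. Cbln1, which granule cells secrete to hold synapses on Purkinje cells, kept a high level of 4.55, 4.65 and 4.04 in the tumours against 7.06, 7.12 and 7.17 in the normal cerebella (6.51-fold lower). The glutamate receptor gene Grm4 was not above background in any tumour, at least 24.0-fold lower. Chn2 (-6.65), Car4 (-6.41), Calb2 (-6.09) and the transcription factor gene Etv1 (-3.94 on the log2 scale) fell too. In bulk tissue, fewer cells of a type and less RNA per cell cannot be told apart, and this holds for every cell type list here.

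Purkinje cell genes fell in 15 of 16 cases (median -5.29). Calb1, the calcium buffer calbindin, stood at -2.05, -3.03 and -6.45 in the tumours against 6.14, 6.08 and 6.08 in the normal cerebella, with 2 tumours well above background. Pcp2 was 66.4-fold lower and the transporter gene Slc1a6 73.9-fold lower. Itpr1 (-4.54), the nuclear receptor gene Rora (-4.68) and Homer3 (-2.60) fell as well. The exception was Foxp2, a transcription factor gene that rose, with 0.81, 0.39 and -0.06 in the tumours against -1.10, -1.13 and -1.32 in the normal cerebella. Of 10 GABAergic interneuron genes tested, 9 fell (median -7.17). The vesicular GABA transporter gene Slc32a1 stood at -1.01, -1.87 and -2.91 in the tumours against 6.23, 6.27 and 6.16 in the normal cerebella (283-fold lower). Gad2 (-7.22), parvalbumin (Pvalb, -7.11), Lhx5 (-7.83) and Cck (-8.72) fell, and the glycine transporter gene Slc6a5 was at least 24.0-fold lower. Gad2 and Lhx5 were above background in 2 of the 3 tumours and Cck in 1. Here the exception was Lhx1, with 3.47, 2.94 and 3.31 in the tumours against 2.50, 2.36 and 2.35 in the normal cerebella.

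Synapse and channel genes were mostly lower too. Of 19 synaptic vesicle release genes 17 fell and 1 rose (median -3.15), of 18 neurotransmitter receptor genes 16 fell and none rose (median -3.21), and all 17 ion channel genes fell (median -4.51, or -3.45 with 3 at their bounds). Snap25, a SNARE protein of vesicle fusion, stood at -1.46, -1.41 and -1.79 in the tumours against 4.17, 4.04 and 4.21 in the normal cerebella. Vamp1 (-4.46), Vamp2 (-3.05), Nsf (-3.19) and Cplx1 (-2.96) fell as well. Stx1a alone rose, with -0.85, -0.84 and -1.06 in the tumours against -4.29, -4.39 and -4.91 in the normal cerebella. Syn1 did not pass the test on the probe used (0.05), and a second probe gave -2.99. Among receptors, the GABA-A subunit gene Gabrb2 (-5.64) and the glutamate receptor genes Grin1 (-3.18) and Gria4 (-2.32) fell, and Grin2a was at least 1.83-fold lower. Among channels, the fast potassium channel gene Kcnc1 (-4.78), the sodium channel genes Scn1a (-4.74) and Scn2b (-5.98), and the pacemaker channel gene Hcn2 (-2.34) fell. The 3 probes of Kcnc1 ranged between -5.98 and -1.67.

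The cytoskeleton list moved both ways. Of 19 members 8 rose and 9 fell (median -0.09). In every fit that left out 1 array Vim lost its call, and 7 members rose. The neurofilament gene Nefh was not above background in any tumour, at least 241-fold lower, and Nefl stood at -3.33, -4.16 and -7.02 in the tumours against 3.45, 4.35 and 3.51 in the normal cerebella, with 2 of 3 tumours above background. The axonal microtubule genes Map1a (-3.41), Map1b (-2.45), Tppp (-4.60) and Stmn3 (-1.26) fell. Nes, the intermediate filament nestin of progenitors, rose, with 2.80, 2.64 and 3.35 in the tumours against -1.07, -0.81 and -1.12 in the normal cerebella. The tubulin genes Tubb4a (by 2.11), Tubb2b (by 2.07) and Tuba1a (by 0.96 on the log2 scale) rose.

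Glial lists went in different directions. Of 18 astrocyte and Bergmann glia genes 15 fell and 1 rose (median -3.29). The water channel gene Aqp4 stood at -1.46, -2.88 and 0.36 in the tumours against 2.53, 2.62 and 2.55 in the normal cerebella. Gja1 (-4.69), Ndrg2 (-2.95), Sparcl1 (-2.93) and the glutamine synthetase gene Glul (-1.80) fell, and the metabolic enzyme gene Etnppl was at least 226-fold lower. Gfap, the classical astrocyte filament, did not pass the test, with -3.67, -3.79 and -3.04 in the tumours against -4.03, -3.55 and -3.59 in the normal cerebella. Sox9 alone rose (by 1.86), a gene that neural progenitors also express. Of 13 genes of mature oligodendrocytes, the myelin-forming cells, 12 fell (median -4.34, or -4.13 with 2 at their bounds). Mag, a myelin-associated adhesion protein, stood at -0.68, 0.34 and -1.27 in the tumours against 3.45, 4.28 and 3.63 in the normal cerebella (20.0-fold lower). Cnp (-3.67), Mal (-4.65) and Aspa (-4.53) fell as well, and Mog was at least 17.5-fold lower. Mbp did not pass the test on the probe used (0.14), whereas its 3 probes ranged between -5.71 and 0.14. All 12 genes that fell were highest in normal cerebellum 2 among the normal arrays.

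Genes of oligodendrocyte precursors were higher, in 4 of 5 cases (median 2.49). Pdgfra, the growth factor receptor of these cells, stood at 2.64, 2.87 and 2.56 in the tumours against -1.81, -1.44 and -1.98 in the normal cerebella (21.6-fold). Its 2 probes ranged between 2.37 and 4.43 on the log2 scale. Olig2 averaged 1.33 ± 0.16 in the tumours and -1.72 ± 0.54 in the normal cerebella, Cspg4 was higher by 2.49 and Olig1 by 1.46. The call for Olig1 was lost when normal cerebellum 1 or 3, MB4 or MB6 was left out, or with slide as a term (adjusted p between 0.0569 and 0.0846 in these fits). Gpr17 did not pass (0.95). Sox10 was not matched by name.

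Immune and vascular markers were measured to describe what other cells the tissue held. Of 16 microglia and macrophage genes 13 rose and none fell (median 1.39), and their summed linear signal was 54.1 to 74.6 in the tumours against 12.9 to 17.3 in the normal cerebella, in units of the 75th percentile. The complement gene C1qa stood at 2.51, 2.49 and 2.86 in the tumours against -0.59, -0.23 and -0.34 in the normal cerebella (8.03-fold), and C1qb, C1qc, Tyrobp, Fcer1g and Aif1 rose by 3.03 to 3.96. Lyz2, a lysozyme gene of macrophages, was 69.0-fold higher, with 0.42, 0.51 and 1.30 in the tumours against -5.90, -5.39 and -4.80 in the normal cerebella, of which 2 of 3 were above background. The markers of resting brain microglia P2ry12 (-0.15) and Tmem119 (-0.31) did not pass the test. Among 5 lymphocyte genes tested, Ptprc, which all white blood cells express, rose by 3.05 and Cd3g fell by 1.13. Cd3g lost its call in several of the alternatives, and Cd3e and Lck did not pass.

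Endothelial and pericyte genes were mixed, with 6 of 14 higher and 4 lower (median 0.33). These counts lay near the shares over all genes tested (40.9% and 33%). The blood-brain barrier transporters Abcb1a (-2.07) and Slco1a4 (-1.61) and the receptor genes Flt1 (-1.99) and Tek (-1.14) fell, while Vwf (by 0.97) and the pericyte channel gene Kcnj8 (by 2.21) rose. All 4 blood genes tested fell, the haemoglobin genes Hbb-bt and Hba-a1 by 2.83 and 2.73 on the log2 scale, although near-identical haemoglobin copies may share these probes. The summed signal of the blood list was 2.74 to 5.28 in the tumours against 20.6 to 42.2 in the normal cerebella. Of 10 meningeal fibroblast genes 2 rose and 3 fell (median -0.18), with a summed signal of 9.70 to 19.7 in the tumours against 20.4 to 70.9 in the normal cerebella. Ptgds alone made up most of the summed signal in each normal cerebellum, so the sums do not describe the list as a whole. Ptgds stood at -2.42, -2.20 and -1.93 in the tumours against 5.80, 5.71 and 3.67 in the normal cerebella. Slc6a13 and Ogn were likewise lowest in normal cerebellum 3 among the normal arrays. Col3a1, a fibrillar collagen gene, rose by 2.97. Of 9 choroid plexus genes 2 rose and 2 fell (median -0.42), with a summed signal of 2.32 to 2.90 in the tumours against 6.48 to 10.4 in the normal cerebella. The defining transcript Ttr was not above background in any tumour and in 1 of 3 normal cerebella, and Aqp1, which is expressed beyond the choroid plexus as well, was at least 35.3-fold higher in the tumours. The part of these cell types in the other differences was not tested.

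Genes of 2 developmental signalling pathways moved both ways. Of 14 Notch genes 8 rose and 3 fell (median 1.55), with the ligand genes Dll3 (by 5.26) and Jag1 (by 2.55), the sugar transferase gene Mfng (by 4.13) and the target Hey1 (by 2.25) higher. Notch2 (by 1.78) and the nuclear partner Rbpj (by 1.98) rose too. The genes that fell were Notch3, Jag2 and Numb, and Notch1, Dll1 and Hes5 did not pass the test. Of 15 WNT genes 6 rose and 5 fell (median -0.30), near the shares over all genes tested (40.9% and 33%). Nkd1, a feedback inhibitor, stood at 5.21, 5.14 and 5.02 in the tumours against 0.73, 0.93 and 0.68 in the normal cerebella, and the receptor genes Fzd2 (by 4.84) and Fzd7 (by 1.94) rose. The ligand gene Wnt7a, made by granule neurons, fell by 5.64 and Wnt3 fell by 2.55. Dkk2 was at least 2.59-fold higher.

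Of 22 hypoxia and glycolysis genes 16 fell and 2 rose (median -1.22). The hexokinase genes went in opposite directions. Hk2, the form of proliferating cells, stood at 4.90, 4.56 and 4.49 in the tumours against 2.00, 1.75 and 1.63 in the normal cerebella, while Hk1, the form of mature brain, fell by 3.02 on the log2 scale. The neuronal enolase gene Eno2 was 87.9-fold lower, Pfkm fell by 3.15 and Ldhb by 1.83, and Ldha rose by 1.03. The hypoxia marker gene Car9 fell by 2.83. Of 16 interferon and MHC class I genes 8 rose and 4 fell (median 0.53). The antigen presentation genes Psmb8 (by 2.02), Psmb9 (by 1.52), H2-K1 (by 1.36) and B2m (by 1.18) rose, while Ifit3 (-2.62) and Stat2 (-1.89) fell. Of 14 immediate early genes 8 fell and 3 rose (median -1.62). Fos stood at -2.97, -2.93 and -3.18 in the tumours against -0.05, -0.08 and 0.88 in the normal cerebella, and Arc (-3.21), Dusp1 (-1.99) and Egr1 (-1.92) fell. Egr2, above background in no normal cerebellum, was at least 71.0-fold higher in the tumours, and Fosl2 rose by 2.70. The 2 probes of Fosl2 ranged between 0.50 and 2.70.

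Ranked over all named genes measured on all 6 arrays, the largest rises beyond Mki67, Birc5, Ccna2, Exo1 and Ccnd2 were those of the following genes. Krt10, a keratin gene, stood at 4.28, 4.45 and 3.97 in the tumours against -4.38, -4.38 and -4.59 in the normal cerebella (411-fold). Kif20a, a mitotic kinesin gene, rose by 8.19, the ubiquitin-conjugating gene Ube2c by 7.90, the lipid antigen presentation gene Cd1d1 by 7.49, and Cdca7 by 7.47 on the log2 scale. The chromatin assembly gene Chaf1b rose by 7.46 and Tox3 by 7.35. Among genes not above background in any normal cerebellum, Ncapg, a condensin subunit gene, had the largest bound (at least 526-fold), followed by Igfbpl1 and Tk1. Nusap1 (at least 342-fold), Pimreg (at least 255-fold) and Melk (at least 253-fold), genes of dividing cells, and Shisal2b (at least 259-fold) stood lower in this order. The 2 probes of Ncapg ranged between 6.37 and 9.49 on the log2 scale.

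The largest falls were ranked in the same way. Gng13, a G protein subunit gene, stood at -2.77, -3.73 and -3.27 in the tumours against 5.21, 5.02 and 4.98 in the normal cerebella (321-fold lower). Plk5, a polo-like kinase gene of brain, was 292-fold lower, with -3.35, -3.97 and -3.43 in the tumours against 4.58, 4.58 and 4.64 in the normal cerebella. Itpka (-8.11), Rgs8 (-7.96), Gad1 (-7.60), the chloride transporter gene Slc12a5 (-7.55), St8sia5 (-7.48), Tmem130 (-7.38), Car8 (-7.36), Ptgds (-7.25) and Kcnip4 (-7.20) completed the 12 together with Slc32a1. Among genes above background in no tumour, Nefh and Etnppl had the largest bounds. Il22 (at least 174-fold, the probe that carries this name), the tubulin gene Tuba8 (at least 123-fold) and Ms4a19 (at least 93.1-fold) followed. Slco4a1, Spock3, Kcng4, Pkp3 and Hapln4 were at least 77.0-fold to 90.0-fold lower. In all, 662 higher genes were above background in all 3 tumours and no normal cerebellum, and 779 lower genes in all 3 normal cerebella and no tumour.

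The 3 tumours were not alike in every gene. MB6 was the one farthest from the median of the 3 for 12131 genes (56.0%), MB4 for 5302 and MB5 for 4228. Each of the 3 was hybridised on a different slide, MB4 on slide 3, MB5 on slide 4 and MB6 on slide 1. MB6 was also the only male. It had the fewest probes well above background, 24298 against 25913 in MB4 and 27318 in MB5. The part of sex, slide or array signal in its values was not tested. The following genes are given as a description with no test. Of genes above background in all 3 tumours, the widest ranges were those of Slc15a2, a peptide transporter gene (-4.90, 0.01 and 0.66), Foxd1 (-0.86, -2.06 and 2.59), Lcn2, lipocalin (-3.57, -4.58 and -0.08), Olig3, a rhombic lip factor (1.92, 0.95 and -2.51), Cdh15, a cadherin of mature granule neurons (-2.74, -0.81 and 1.58), and Akr1e1 (-4.81, -0.53 and -1.25). MB6 was the highest of the tumours for Slc15a2, Foxd1, Lcn2 and Cdh15 and the lowest for Olig3.

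The astrocyte list and some neuronal genes were highest in MB6, while the order of MB4 and MB5 differed between them. Median differences of the astrocyte list from the mean of the normal cerebella were -3.32 in MB4, -3.93 in MB5 and -2.70 in MB6, and Gdf10, a Bergmann glia gene, stood at -3.49, -3.61 and -0.77. Hes5, a Notch target of glia and progenitors, stood at 0.54, 0.03 and 2.69, so that MB6 lay apart while MB4 and MB5 were near the normal cerebella. The precursor adhesion gene Cntn2 stood at 1.22, 1.94 and 3.49 in the tumours against 3.08, 3.11 and 3.03 in the normal cerebella, with MB6 above all of them. In the other direction, Calb1, Gabra6 and Nefl were lowest in MB6, where none of the 3 was above background. Atoh1 was lowest in MB6 too. Cycle genes varied little by comparison, with list medians for mitosis of 7.93 in MB4, 7.81 in MB5 and 7.55 in MB6. Hypoxia and glycolysis genes had medians of -1.11 in MB4, -0.99 in MB5 and -1.96 in MB6.

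**Figure D4:**
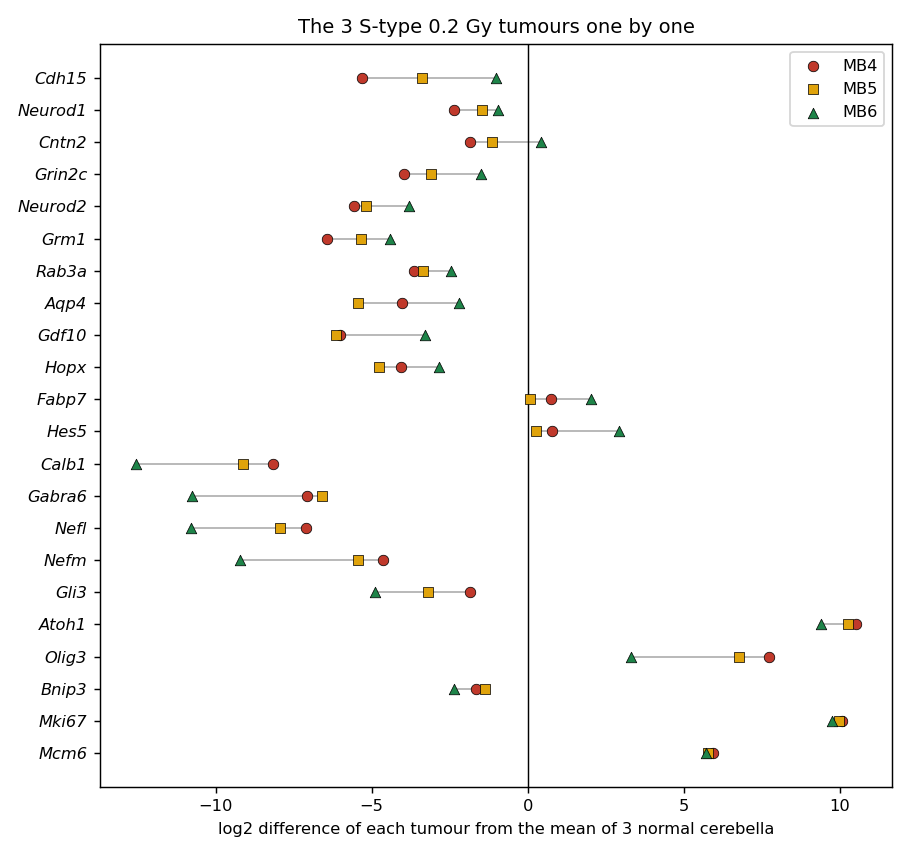
Log2 difference of each S-type 0.2 Gy tumour (MB4, MB5 and MB6, by symbol) from the mean of the 3 normal cerebella for 22 genes chosen after their values were seen, with a line over the range of the 3 tumours and 0 marking the normal mean. MB6 lies to the right of MB4 and MB5 for the upper 12 genes, neuronal and glial, and to the left for Calb1, Gabra6, Nefl, Nefm, Gli3, Atoh1, Olig3 and Bnip3, while Mki67 and Mcm6 hardly differ.

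To find what set these tumours apart from the most similar groups, they were compared with S-type tumours at 0 Gy and with R-type tumours at 0.2 Gy. These comparisons use the same 3 arrays of S-type 0.2 Gy tumours as the comparison with normal cerebellum. Labelled ages did not overlap in either comparison, so age cannot be told apart from dose or type. Both comparison groups were all female, whereas MB6 was male. Between the doses 1 of 21661 genes passed in limma (0.00462%), Zic2, with 1245 genes at an unadjusted p below 0.05. That call was lost in 4 of the 6 fits that left out 1 array. Zic2 stood at -1.22, -1.18 and -1.27 in S-type tumours at 0.2 Gy against -0.06, -0.23 and -0.43 in S-type tumours at 0 Gy (log2 difference -0.99 ± 0.11 SE, adjusted p = 0.0447, limma). All 3 values at 0.2 Gy lay below those at 0 Gy, and both groups lay below the normal cerebella.

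Between the types at 0.2 Gy, 603 genes (2.78%) were higher in S-type and 430 (1.99%) lower (58.4% of the changed genes higher). This split depended on the scaling: without scaling 94.1% were higher, and with normexp background correction 39.6%. Leaving out 1 array left 190 to 586 higher and 105 to 343 lower genes. Ptch1 stood at -1.60, -1.76 and -2.08 in the S-type tumours against -3.16, -2.98 and -3.16 in the R-type tumours (log2 difference 1.29 ± 0.17 SE, adjusted p = 0.00175, limma), without overlap. The R-type values overlapped those of the normal cerebella. Of the 19 Hedgehog genes only Ptch1 and Gas1 (by 0.61 on the log2 scale) passed between the types, both higher in S-type. Cdkn2a stood at 0.66, 0.34 and -0.91 in the S-type tumours against -2.61, -1.48 and -1.47 in the R-type tumours. None of the mitosis, replication, repair or ribosomal protein genes passed between the types.

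The largest differences between the types concerned other genes. Mab21l2, a gene of eye and brain development, stood at 1.33, 1.18 and 1.14 in the S-type tumours against -1.48, -6.92 and -7.48 in the R-type tumours, of which 1 was above background. Dgkb, a diacylglycerol kinase gene (by 2.99, above background in 1 of 3 R-type tumours), Lrba (by 2.86), the acetylcholine receptor gene Chrna10 (by 2.86) and the Argonaute gene Ago4 (by 2.73 on the log2 scale) were higher in S-type as well, and Bend7 was at least 2.64-fold higher. Lower in S-type were the teneurin gene Tenm3 (-4.70, above background in 2 of 3 S-type tumours) and Islr2 (-3.25). Fgf5, a growth factor gene, stood at -0.91, -0.86 and -1.37 in the S-type tumours against 2.84, 1.79 and 3.08 in the R-type tumours. Igf2bp3, an RNA-binding protein gene of fetal tissue, and Fgl1 were above background in all 3 R-type tumours and in no S-type tumour at 0.2 Gy, which makes them at least 5.39-fold and 2.21-fold lower in S-type. Chrna10 lost its call in all 6 fits that left out 1 array. Mab21l2, Igf2bp3 and Tenm3 lost theirs in 5 of these fits and Lrba in 2. Cdkn2a and Gas1 lost theirs in at least 1, and Ptch1, Fgf5 and Dgkb in none. Map1b stood at -0.51, -0.33 and -0.32 in the S-type tumours against 1.07, 1.18 and 0.74 in the R-type tumours.

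**Figure D5:**
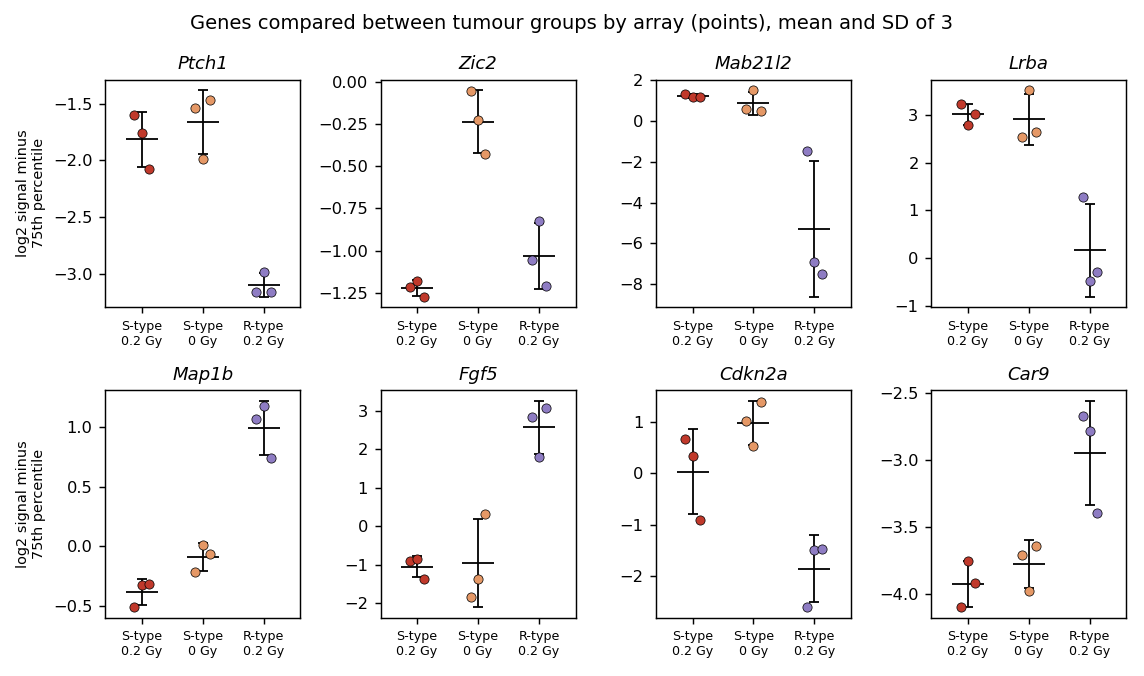
Level of 8 genes (log2 signal minus the 75th percentile) on each array of the S-type 0.2 Gy, S-type 0 Gy and R-type 0.2 Gy tumours, with bars for the mean and SD of 3 arrays; the y axes differ between panels. Zic2 is lower at 0.2 Gy than at 0 Gy within the S-type, and for Ptch1 the S-type 0.2 Gy values lie above the R-type values.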

How the data were processed

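Each sample was hybridised to 1 one-colour Agilent array. Spot intensities were extracted by the authors (the submitters' processing notes name Agilent Feature Extraction 9.5.1), and the processed signal is already background-subtracted, per the file headers. From these intensities, log2 of the signal minus each array's 75th percentile was computed, spots of a probe were averaged, and 41098 of 41174 probes were kept after outlier flags. Probes were named through RefSeq (GRCm38.p6): 24800 of 26335 with a RefSeq accession matched. The array annotation is mm9, so no array coordinates are given. Each gene was represented by its brightest probe on average across all 15 arrays, and a gene entered the test if 3 or more arrays gave it a signal well above background (21661 genes). Fold changes and bounds are those of this probe, and other probes of a gene can differ in size. Of 5397 genes with several probes tested, 280 had probes with opposite calls between tumours and normal cerebellum.

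The authors also deposited a table of log2 values, used as an alternative. Its values are centred on the mean of MB1 and MB2 at each probe. Taken as differences from normal cerebellum 1, they correlated with the same differences of the scaled signals at 0.99987 to 0.99999. The column medians were 0.0682, -0.0795 and 0.0525 for MB4 to MB6, against 0.00242, 0.0820 and 0.0892 for normal cerebellum 1 to 3, and its scale before centring stays unknown.

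Groups followed the labels. All 15 arrays entered 1 limma fit (limma 3.58.1, R 4.3.3) with Benjamini-Hochberg adjustment, tested on simulated data. Labelled ages differ within every tumour group, so the spread among tumours is between animals. Normal cerebella 1 and 2 share age and sex. Their titles carry different codes, but the labels do not say that they came from separate mice. Other scalings, background correction, filters, probe choice, slide and left-out arrays were tried. Named genes were those with the largest changes or bounds, the smallest adjusted p of each list and the widest range over the tumours. Other list members were named for their role after their values were seen, and the members and lists were chosen with earlier results of these data known. Some genes that the naming rule chose are not reported here.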

Additional observations from a re-analysis of the deposited data

Results flagged for a closer look

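The following named genes differed between S-type and R-type tumours at 0.2 Gy in limma (adjusted p below 0.05). The log2 differences, S-type minus R-type, were positive for Mab21l2 (6.51), Bend7 (3.03), Dgkb (2.99), Chrna10 (2.86), Lrba (2.86), Ago4 (2.73), Shisal2b (2.07), Cdkn2a (1.88), Ptch1 (1.29) and Gas1 (0.61). They were negative for Tenm3 (-4.70), Igf2bp3 (-4.65), Fgf5 (-3.62), Fgl1 (-3.40), Islr2 (-3.25), Map1b (-1.38), Car9 (-0.98), Pmaip1 (-0.89) and Cbln1 (-0.72). The values of Bend7, Igf2bp3 and Fgl1 are fitted against a group in which no array was above background, so that only bounds hold: Bend7 was at least 2.64-fold higher in S-type, and Igf2bp3 and Fgl1 were at least 5.39-fold and 2.21-fold lower. Mab21l2 and Dgkb were above background in 1 of 3 R-type tumours and Tenm3 in 2 of 3 S-type tumours, so the sizes of their differences are uncertain. Zic2 differed by -0.99 between S-type tumours at 0.2 Gy and at 0 Gy.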

How the results depend on the processing

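S-type 0.2 Gy tumours against normal cerebellum gave 8354 to 8564 higher and 6708 to 6912 lower genes without 1 array. Of the 231 changed genes named, 224 kept direction and call in every alternative setting that re-fitted this comparison. Of the 21 alternative settings, those that left out an array of another tumour group did not re-fit it. Cd3g, Hes1, Lum, Olig1 and Reln lost their calls in some, Vim did so in every fit that left out 1 array, and Trp53 turned to 1.41 with the mean over probes. That setting also turned Mbp (-3.58) and Syn1 (-1.47). Gfap lay between -0.0081 and 0.365 without 1 array, turning without MB6, Lck was -0.151 with slide as a term and Syn1 lay between -0.0285 and 0.125 without 1 array, turning without normal cerebellum 1. Of 58 list counts 5 moved: lymphocyte genes (2 higher and 1 lower with no filter, 1 lower with slide as a term, 0 to 2 lower without 1 array), astrocyte genes (1 to 2 higher) and meningeal genes (1 to 3 higher) without 1 array, and immediate early genes (5 higher with the 6 arrays alone). Between S-type and R-type tumours at 0.2 Gy, higher and lower genes numbered 2515 and 158 without scaling, 343 and 198 with no filter, 292 and 164 with the arrays of the comparison alone and 288 and 166 with slide as a term, with 806 lower after normexp, and 190 to 586 and 105 to 343 without 1 array. The median log2 difference of all genes between these types was -0.02, but 0.23 without scaling. Between the doses, 1 gene was higher with quantile normalization, with the stricter filter, with the mean over probes and with the deposited table. None was lower without scaling, with no filter, with the arrays of the comparison alone or with slide as a term (0), and 2 were lower with the stricter filter, the mean over probes or the deposited table. Without 1 array, 0 to 8 were higher and 0 to 9 lower, the most without MB1. The cause was not tested. No paired analysis was possible because the tumours and the normal cerebella share no replicate numbers in the labels. Slide was used as a term instead.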
